A study of Homo sapiens with 19 samples.

Results

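Interferon-stimulated genes are genes whose transcription an interferon turns on. Here 43 of them, taken by name from a list, were followed among the 20033 protein-coding genes of GENCODE release 44. The data are peak lists from CUT&RUN, in which an antibody-tethered nuclease releases the chromatin that carries a histone mark, made on MOLM-13 cells, an established human line of acute myeloid leukaemia. H3K27ac, H3K4me2 and H3K4me3 were each profiled in 2 libraries of cells given Corin and 2 libraries of cells given the vehicle DMSO. All 12 libraries come from this 1 line. Corin is a single compound aimed at the CoREST complex: it blocks LSD1, which takes methyl groups off H3K4me2, together with the deacetylases HDAC1 and HDAC2 of that complex. The comparison asks where the marks lie once the complex is inhibited. The labels give 24 h and 0.1 µM for both groups, a dose whose meaning for DMSO is unclear, and name no interferon. They do not say whether replicates were separate cultures, so spreads and p-values measure only the difference between these libraries, which may be technical.

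Type I interferons bind the receptor chains IFNAR1 and IFNAR2, and the kinases JAK1 and TYK2 then phosphorylate STAT2, among others. STAT2 enters with IRF9 into the complex ISGF3, which binds the interferon-stimulated response element in the promoters of its target genes. The products block viral entry, sense or degrade foreign RNA, and stop translation. Of the marks measured, H3K27ac lies at active promoters and enhancers, H3K4me2 at promoters and enhancers in active or poised states, and H3K4me3 mostly at promoters of transcribed genes with many CpG dinucleotides.

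The response element itself is shown first, because most of the promoters at hand hold its letters and the members were not chosen for it. RefSeq promoters on GRCh38.p14, which run from 250 bases before to 50 bases after a start, were at hand for 33 of the 43 members at the start of the MANE Select transcript, the reference transcript of each gene. The letters GAAA, any 2 bases and GAAA again, searched on both strands, stood in 24 of these 33 promoters (72.7%), against 455 of 14586 protein-coding promoters (3.12%). In 14 members the response element letters occurred at least 2 times. Over all 24 members with a match, 38 of 42 matches lay within 200 bases before the start. The promoters of 4 members show how the letters are arranged, and each is printed up to the first annotated UTR base, 5′ to 3′ along the gene, with complete response element matches of either strand in capitals (a match on the other strand reads TTTC, any 2 bases and TTTC). IFI6 (chr1:27672213-27672442, minus strand) and IFIT3 (chr10:89327747-89327940, plus strand) had the largest H3K4me2 differences in windows set at the gene's 5′ end. HERC5 (chr4:88456869-88457118, plus strand) carries overlapping copies. IFI44L (chr1:78620198-78620381, plus strand) had no peak in any library, and the second of its 2 matches crosses a UTR base and is left in lower case.
IFI6: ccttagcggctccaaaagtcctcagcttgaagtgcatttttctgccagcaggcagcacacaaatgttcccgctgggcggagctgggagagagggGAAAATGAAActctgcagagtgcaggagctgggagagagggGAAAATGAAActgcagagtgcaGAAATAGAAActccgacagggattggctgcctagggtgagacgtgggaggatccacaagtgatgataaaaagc
IFIT3: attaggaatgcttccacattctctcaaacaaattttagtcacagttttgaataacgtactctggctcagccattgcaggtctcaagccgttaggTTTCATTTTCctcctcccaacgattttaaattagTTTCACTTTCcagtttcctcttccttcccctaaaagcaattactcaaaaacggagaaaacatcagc
HERC5: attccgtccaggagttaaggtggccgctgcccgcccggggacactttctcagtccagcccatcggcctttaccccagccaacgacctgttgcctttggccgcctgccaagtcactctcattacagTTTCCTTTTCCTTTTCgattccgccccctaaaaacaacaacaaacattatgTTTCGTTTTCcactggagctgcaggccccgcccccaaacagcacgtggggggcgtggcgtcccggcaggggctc
IFI44L: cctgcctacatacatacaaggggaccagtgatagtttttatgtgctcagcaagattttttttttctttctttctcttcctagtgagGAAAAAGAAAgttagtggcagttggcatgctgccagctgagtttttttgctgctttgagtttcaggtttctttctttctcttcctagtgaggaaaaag
For BST2, the member with the largest H3K4me3 difference, only the site itself is given (chr19:17405738-17405767, minus strand), since a transcript of MVB12A on the other strand has a UTR there. Its 2 matches overlap.
BST2: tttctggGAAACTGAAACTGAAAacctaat
A match is a description of these letters and not a measured binding site.

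The files hold peak positions and a score but no reads, so the measure for each gene and library was the number of bp under peaks within 10 kb either side of the gene's 5′ end. The labels give a minimum of 5000000 reads and the depth of each library is not known, and a wider peak is not the same thing as a stronger signal. The H3K27ac lists held 30029 and 34424 peaks with Corin against 17599 and 19995 with DMSO, the H3K4me2 lists 40042 and 41152 against 30896 and 32299, and the H3K4me3 lists 11757 and 11883 against 11104 and 11343. As a check of the cell type, 10 of 10 myeloid genes carried H3K4me2 within 2 kb of the MANE Select start in both DMSO libraries, 8 carried H3K27ac and 7 carried H3K4me3, with MPO without H3K4me3 in all 4 libraries. Of 15 marker genes of other cell types, CD4 alone carried H3K27ac or H3K4me3, and CD4, KRT8, CD79A, CD8A and PAX5 carried H3K4me2. The summed H3K27ac over the myeloid markers was 18763 to 20341 bp with Corin and 11812 to 14870 bp with DMSO, and over the other markers 2391 to 3187 bp and 1541 to 1651 bp. Those sums move in the same direction as the results below, and the part of peak number and of cell identity in the results was not tested.

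The 43 members do not form 43 independent windows. IFITM1, IFITM2 and IFITM3, RSAD2 and CMPK2, and PARP9 and DTX3L overlap, which leaves 39 groups of windows. For ISG15, GBP2, ADAR, IFIT2 and RSAD2 the MANE Select start lies 12359, 24342, 19827, 18352 and 12220 bp inside the gene's 5′ end, beyond the window. This offset exceeds 10 kb for 8.68% of all genes. Values at the MANE Select start are therefore given as well where a count or a named member turns on them.

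In DMSO the starts of these genes carried H3K4me2 mostly without the other marks. Within 2 kb of the MANE Select start, H3K4me2 was present in both DMSO libraries at 32 of 43 members (74.4%; all genes 60.9%), H3K4me3 at 9 (20.9%; all genes 49.4%) and H3K27ac at 4 (9.3%; all genes 27.6%). H3K4me2 alone stood at 22 members (51.2%), a state that 11.2% of all genes had. This group held ISG15, IFI6, all 4 IFIT genes, OAS3, OASL, MX2, RSAD2, USP18, HERC5 and ZBP1. All 3 marks were together at XAF1, BST2 and IFIH1 (6.98%; all genes 26.7%). H3K4me2 with H3K4me3 stood at 6 members, namely the RNA-editing enzyme ADAR, the transcription factor STAT2, the mitochondrial nucleotide kinase CMPK2, and DTX3L, PARP9 and PARP14 of the ADP-ribosylation group. The remaining states were H3K4me2 with H3K27ac at SAMD9L and none of the marks in both libraries at 11 members.

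**Figure D1:**
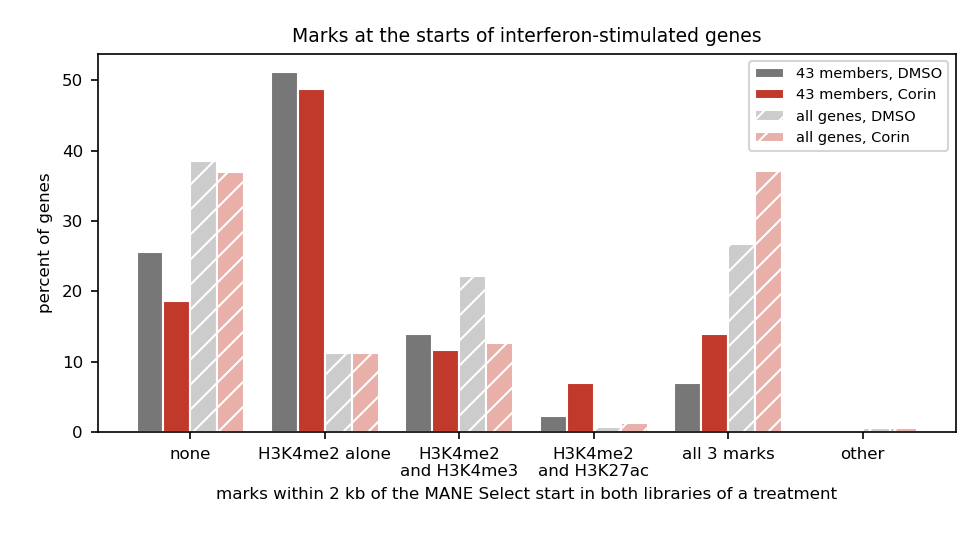
Bars give the percent of the 43 members and of all 20033 protein-coding genes in each combination of marks within 2 kb of the MANE Select start, present in both libraries of a treatment; there is 1 value per group and no error bar. In DMSO, 51.2% of members and 11.2% of all genes had H3K4me2 alone, and 6.98% and 26.7% had all 3 marks.

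The genes that carry the interferon signal were counted at their starts in the same way. Of 34 pathway genes outside the members (interferons, receptors, kinases, factors, sensors and inhibitors), 21 had H3K4me3 (61.8%), 12 had H3K27ac (35.3%) and 4 had H3K4me2 alone (11.8%: IRF7, SOCS3, TLR9 and TLR3). IFNAR1, IFNGR1, JAK2, CGAS and STING1 were among the 11 with all 3 marks. No mark stood at the interferon genes IFNB1, IFNA1, IFNA2, IFNG and IFNL1 in both DMSO libraries, nor in both Corin libraries.

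The marks over the members were most frequent close to the starts. At 200 bp after the MANE Select start, H3K4me2 peaks covered on average 66.3% of members in the DMSO libraries and 69.8% in the Corin libraries, against 39.1% and 36.6% of all genes. This is where the members' share was highest, in Corin equally so at the start itself, and at 1000 bp the order had turned. At 1000 bp after the start H3K4me2 covered 20.9% and 30.2% of members, against 42.5% and 44.6% of all genes, and at 1000 bp before it 10.5% and 14.0%, against 22.6% and 25.5%. At 5800 bp before the start the members' share was again the higher in each of the 4 libraries (9.30% to 14.0%, against 3.25% to 4.41%). At 200 bp after the start H3K4me3 covered 19.8% and 24.4% of members, against 47.2% and 47.8% of all genes. H3K27ac covered 9.30% of members in DMSO and 16.3% in Corin at 200 bp before the start, against 14.2% and 22.9% of all genes there, and in Corin the members' share was the same 200 bp after the start. The curve of H3K4me2 over all genes dips at the start, and the curve over the members has no such dip.

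**Figure D2:**
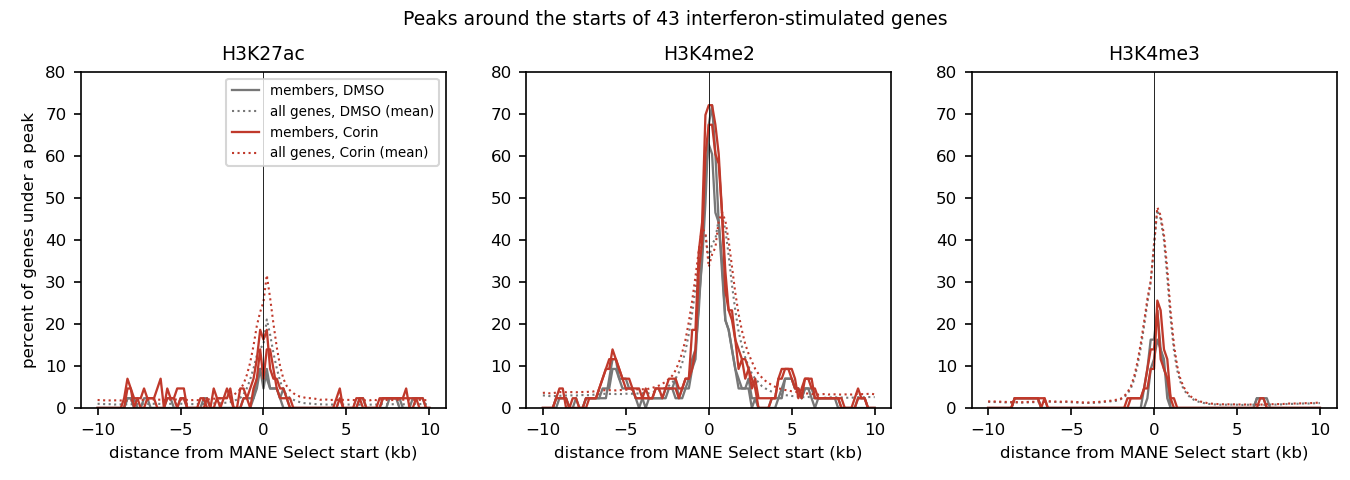
The vertical axis is the percent of genes under a peak and the horizontal axis the distance in kb from the MANE Select start; solid lines are single libraries over the 43 members, dotted lines the mean of both libraries over all genes. H3K4me2 over the members reaches 66.3% (DMSO) and 69.8% (Corin) at 200 bp after the start, above the dotted lines. It lies below them 1000 bp to either side. H3K4me3 lies below its dotted lines at 200 bp after the start, and H3K27ac at 200 bp before it. Farther out some solid lines of H3K4me2 and H3K27ac rise above the dotted ones.

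H3K4me2 covered more bp in both Corin libraries than in either DMSO library at 22 of 43 members (51.2%) and fewer at 0. Over all protein-coding genes these shares were 27.8% and 2.69%. Of the 36 members with an H3K4me2 peak 61.1% were higher, against 39.5% of genes with one. The 22 members fall in 19 groups of windows. The median difference between the Corin and DMSO means was 309 bp over the members and 56.5 bp over all genes, and 168.5 bp over the members without the first Corin library. In the 2 kb window it was 145 bp at the 5′ ends and 188.5 bp at the MANE Select starts, against 0 bp over all genes at both. At the MANE Select starts 24 members (55.8%) were higher and 0 lower, against 28.2% and 2.78% of all genes. With each list held to the same number of top-scoring peaks, 18 were higher and 2 lower (STAT2 and HERC6), against 21.5% and 5.22%.

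No member passed limma, a linear model with a spread pooled over genes, on log2(bp + 500) at an adjusted p of 0.05 for this mark. It tested 35 members and 13688 genes, of which 14 passed (0.102%). An unadjusted limma p under 0.05 with more bp in Corin was found at 12.3% of all genes tested and at 7 members: IFI6, IFI16, IFIT3, IFITM3, OAS1, ZBP1 and HERC5. At the MANE Select starts GBP2, ADAR and IFIT2 were added, which made 10 (all genes 12.3%). The smallest adjusted limma p among members was 0.188, at IFIT3, in the windows at the 5′ end and 0.127, at IFI16, at the MANE Select starts. With 2 libraries against 2 an exact permutation test of a single gene cannot go below p = 0.333. The member differences below are therefore given as values whose groups do or do not overlap.

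In windows set at the gene's 5′ end the largest H3K4me2 difference was at IFI6, a small mitochondrial and ER protein that limits flavivirus replication. It covered 2942 and 2952 bp in the Corin libraries and 496 and 1628 bp in the DMSO libraries. The Corin values nearly coincided while the DMSO values lay far apart, and the groups did not overlap. The difference of means was 1885 bp, with an SD of 800.5 bp from the spread of both groups (limma log2 difference 1.24, SE 0.38, adjusted p = 0.310). Within 2 kb of the start the same libraries had 1246 and 1349 bp against 496 and 1030 bp. The rest came mainly from an intronic region, chr1:27666889-27668049, centred 4723 bp after the start, with 1161 and 764 bp in the Corin libraries and no peak in DMSO. It is the only H3K4me2 region within 10 kb of a member's 5′ end that was present in both Corin libraries and in neither DMSO library. A further peak near 9 kb downstream was seen in 3 of the 4 libraries.

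IFIT3 encodes a scaffold of the IFIT complex that binds viral RNA with unusual 5′ ends. H3K4me2 covered 3002 and 2599 bp there with Corin and 1323 and 1625 bp with DMSO, 1.90-fold more on average, a difference of 1326.5 bp (SD 356). The peak over the MANE Select start, where the printed promoter lies, took 770 and 539 bp against 442 and 397 bp. Most of the difference lay over a second RefSeq start 4532 bp downstream, which also has 2 matches to the response element. Peaks there spanned 2232 bp in the first Corin library and 1510 and 550 bp in the second, against 881 and 1228 bp in DMSO. IFIT2, a neighbour with a similar role, had 2405 and 2512 bp around its MANE Select start with Corin and 1473 and 1874 bp with DMSO. IFIT1, which binds capped RNA lacking methylation, had overlapping groups (1186 and 918 bp against 1179 and 487 bp), and so did IFIT5 (1548 and 1315 bp against 1543 and 1257 bp).

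**Figure D3:**
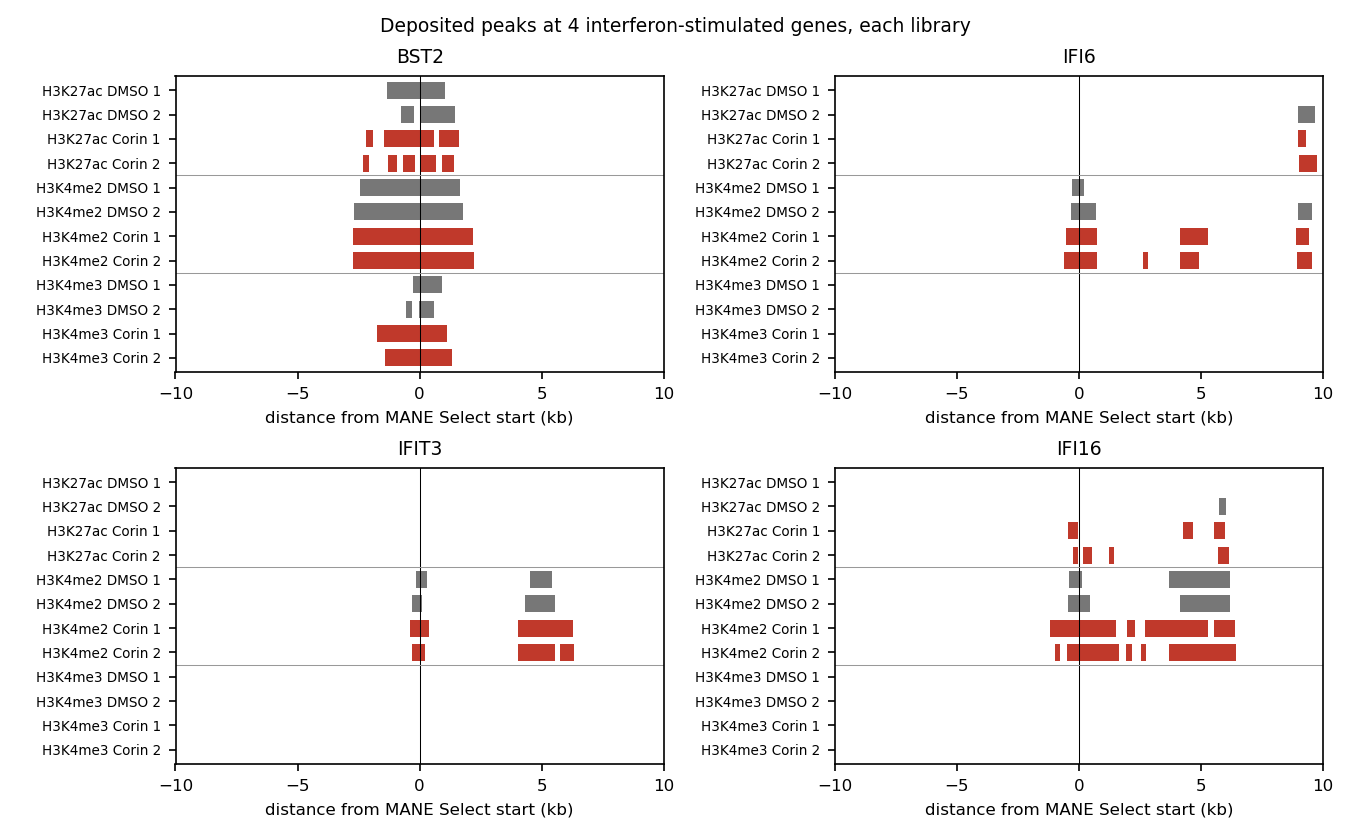
Each bar is a deposited peak in the library named at the left, drawn by its distance in kb from the MANE Select start of the gene (Corin red, DMSO grey; the direction of transcription is to the right). BST2 has H3K4me3 peaks of 2857 and 2757 bp in Corin and 1196, 612 and 243 bp in DMSO, IFI6 has an H3K4me2 peak at 4 to 5 kb in the Corin libraries alone, and IFIT3 and IFI16 have H3K4me2 away from the start in all 4 libraries.

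Among the oligoadenylate synthetases, which make the activator of RNase L, 3 of 4 members were higher for H3K4me2 in both Corin libraries, against 27.8% of all genes. These are the 3 with any H3K4me2 peak, and of all genes with such a peak 39.5% were higher. OAS1 had 1086 and 857 bp with Corin and 0 and 556 bp with DMSO, OAS3 had 817 and 554 bp against 349 and 497 bp, and OASL, a catalytically inactive relative, 1251 and 982 bp against 950 and 572 bp. For all 3 the nearest values of the groups differed by less than the spread within a group. OAS2, the remaining synthetase, lay outside every peak of the 3 marks.

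MX2, a GTPase that blocks nuclear entry of HIV, had 2228 and 1912 bp of H3K4me2 with Corin and 1511 and 1643 bp with DMSO. Its relative MX1, which acts on influenza virus, did not separate the groups, with 1405 and 1347 bp against 883 and 1441 bp. At the MANE Select start of the GTPase GBP2, H3K4me2 covered 1505 and 1712 bp with Corin and 0 and 375 bp with DMSO (limma log2 difference 1.67, SE 0.29, adjusted p = 0.169). The window at the gene's 5′ end of GBP2 held no peak. The added bp included an intronic region, chr1:89128851-89129434, 3029 bp before the start, that was under a peak in both Corin libraries and in neither DMSO library and that held 2 matches to the response element letters. H3K4me2 regions of that kind at IFI6 and IFI16 held 0 and 1 matches. The share of all regions that hold the letters was not counted. GBP1 had no peak of any mark.

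All 4 members that act at membranes were higher for H3K4me2, the 3 IFITM genes in windows that overlap, against 27.8% of all genes. Within 2 kb of the MANE Select start 2 of them were (IFITM2 and BST2; all genes 18.1%), and by bp nearest to the own start IFITM3 and BST2 (all genes 25.9%). The IFITM proteins restrict the fusion of enveloped viruses. IFITM1 and IFITM2 share a window, with 2152 and 2126 bp in Corin and 1779 and 1851 bp in DMSO, and IFITM3 had 891 and 714 bp against 248 and 0 bp. BST2, or tetherin, which holds budding virus at the cell surface, had 4920 and 4935 bp against 4089 and 4496 bp, the highest mean of the 43 members in either treatment in windows at the 5′ end, although TRIM22 had more in the first DMSO library.

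The nucleic acid sensors and kinases were divided. IFI16, a sensor of DNA in the nucleus, had the largest difference of any member once the MANE Select start was used, with 6463 and 5519 bp in Corin and 3049 and 2950 bp in DMSO (2.00-fold; limma log2 difference 0.89, SE 0.13, adjusted p = 0.127). In the window at its 5′ end the values were 1241 and 784 bp against 461 and 520 bp. ZBP1, a sensor of Z-form nucleic acid, had 1306 and 1062 bp against 606 and 363 bp. ADAR, which edits double-stranded RNA, had 1991 and 2441 bp against 1055 and 1973 bp at the 5′ end, a difference of 702 bp (SD 723) that was 243 bp without the first DMSO library and 1161 bp without the second. At the MANE Select start of ADAR the groups were further apart relative to their spread, at 1989 and 1624 bp against 1245 and 1144 bp. EIF2AK2 (PKR), the kinase that stops translation, overlapped between groups (1206 and 1590 bp against 1385 and 1658 bp), as did IFIH1 (MDA5), a sensor of long double-stranded RNA, with 3526 and 3403 bp against 2900 and 3469 bp. The helicase DDX60 had a single peak, of 610 bp in the second DMSO library.

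The ISG15 system was taken as the ubiquitin-like protein ISG15 with genes linked to its attachment or removal. HERC5, its main ligase, had 1642 and 1469 bp of H3K4me2 with Corin and 843 and 1125 bp with DMSO. HERC6 (851 and 349 bp against 834 and 819 bp) and the deconjugating protease USP18 (631 and 214 bp against 961 and 325 bp) overlapped between groups. The ISG15 window at the gene's 5′ end, with 3980 and 3603 bp against 3159 and 3224 bp, is centred 12359 bp from the MANE Select start. At the MANE Select start ISG15 had 4241 and 3174 bp against 2731 and 3722 bp, so the groups overlapped there.

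Of the nucleotide and RNA effectors, the exonuclease ISG20 had 1600 and 1280 bp against 1268 and 955 bp, SAMD9 1742 and 1434 bp against 1329 and 1298 bp, and SAMD9L 1907 and 1255 bp against 1168 and 1003 bp. For each of these 3 the lower Corin value lay closer to the higher DMSO value than to the other Corin value. RSAD2 (viperin), which makes a chain-terminating nucleotide, had 757 and 792 bp against 514 and 598 bp at its MANE Select start. CMPK2, its neighbour, had overlapping values (1620 and 1404 bp against 1401 and 1514 bp). DTX3L and PARP9, partners in a ubiquitin ligase that share a start region, had 1819 and 2001 bp against 1504 and 1698 bp. PARP14 had 4027 and 2876 bp against 3043 and 2837 bp, and STAT2 had 2362 and 2069 bp against 2252 and 2026 bp, both with overlapping groups. TRIM22 had 4863 and 4456 bp against 4447 and 3588 bp. XAF1 (4567 and 3896 bp against 3745 and 4035 bp) and EPSTI1 (1045 and 1021 bp against 1082 and 679 bp) overlapped between groups. IFI35, which binds the partner NMI, had the third-largest separated difference in windows at the 5′ end, with 3902 and 3426 bp against 2975 and 2557 bp, a difference of 898 bp (SD 448). Within 2 kb of its own start that difference was 204.5 bp.

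**Figure D4:**
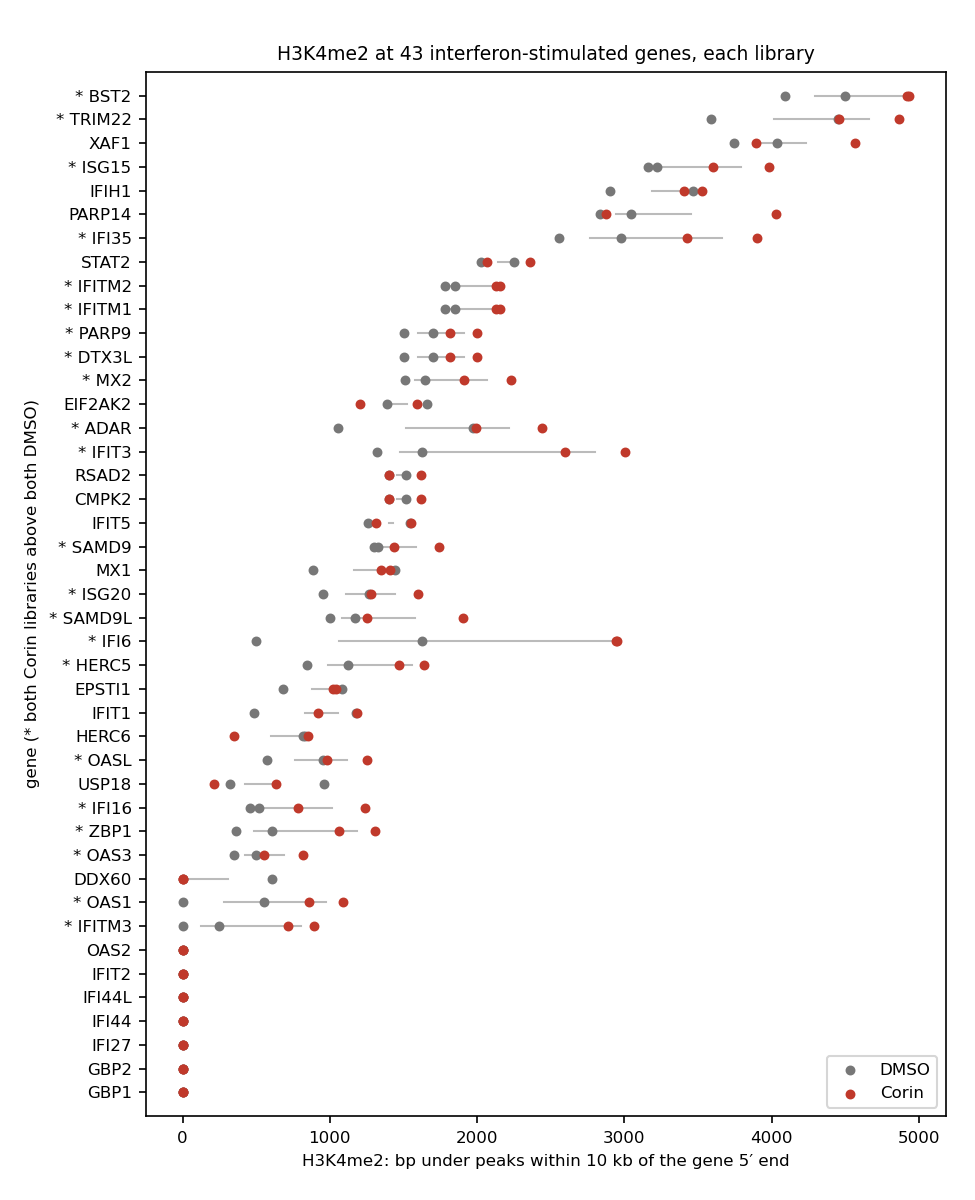
Each row is a member and each point a library (Corin red, DMSO grey), with the H3K4me2 bp under peaks within 10 kb of the gene 5′ end on the horizontal axis; grey lines join the group means. The 22 members with an asterisk have both Corin points to the right of both DMSO points, and IFI6 and IFIT3 have the longest lines.

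H3K27ac covered more bp in both Corin libraries at 12 of 43 members (27.9%) and fewer at 0, against 28.7% and 0.344% of all protein-coding genes. The members' share in this window is thus close to the background. It was 14% at a score of at least 100 and 16.3% in the 2 kb window, against 24.1% and 21.6% of all genes, but 18.6% by number of peaks, against 10.9%. Of the 18 members with an H3K27ac peak 66.7% were higher, against 54.6% of genes with one. The 12 lay in 11 groups of windows, and at the MANE Select starts the count was also 12, with IFIT2 in place of ADAR (all genes 29%). Held to a matched number of peaks, 5 members were higher (ADAR, TRIM22, XAF1, IFI35 and ZBP1), against 16.8% of all genes. The median difference was 0 bp over the members and over all genes. No member passed limma among 15 tested, and 0 of 9380 genes passed (0%), with 2308 genes under an unadjusted p of 0.05. Those with more bp in Corin made up 24.5% of the genes tested. The members under that unadjusted limma p were TRIM22, ISG20, XAF1, IFI35 and ZBP1, and their smallest adjusted p was 0.162. At the MANE Select starts IFI16 joined them (24.3% of genes tested), and the smallest was 0.144.

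IFI35 had the highest H3K27ac values of its role group and the largest difference, 3825 and 3768 bp with Corin against 1118 and 1984 bp with DMSO (2245.5 bp, SD 614). Most of it lay nearer to the starts of other genes: bp nearest to the start of IFI35 itself numbered 869 and 1451 against 213 and 767. XAF1, which binds the apoptosis inhibitor XIAP, had 2541 and 2113 bp against 798 and 1289 bp (1283.5 bp, SD 461). Part of this was an intergenic region, chr17:6752971-6754058, centred 2531 bp before the start, with 914 and 744 bp in the Corin libraries and no peak in DMSO. ISG20 had 1928 and 632 bp against 212 and 288 bp, a difference of 1030 bp (SD 918) that was 382 bp without the first Corin library and 1678 bp without the second. TRIM22, an antiviral ubiquitin ligase, had 1419 and 627 bp against 302 and 219 bp, 762.5 bp apart (SD 563), and 366.5 bp without the first Corin library or 1158.5 bp without the second. In each of these 4 the groups did not overlap, and for ISG20 and TRIM22 the size depended on which Corin library was used. With a matched number of peaks the difference at ISG20 was 160.5 bp and its groups no longer separated. In a 2 kb window it was 0 bp at the 5′ end of ISG20 and 304.5 bp at its MANE Select start.

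Among the sensors IFIH1 had the most H3K27ac, 757 and 1542 bp with Corin and 490 and 331 bp with DMSO. IFI16 had 1289 and 1259 bp around its MANE Select start against 0 and 264 bp, part of it just before the start (chr1:159009472-159009887, with 416 and 199 bp in Corin and no peak in DMSO). ZBP1 had 362 and 324 bp against 0 and 0 bp, all in an intergenic region 8148 bp before the start (chr20:57628393-57628754). MX2 had 223 and 342 bp against 0 and 0 bp, in an exon 4606 bp after the start (chr21:41366462-41366803). The PARP9 group was higher in both Corin libraries at all 3 members, against 28.7% of all genes, but PARP9 and DTX3L share 1 window and none of its H3K27ac was nearest to the start of PARP9. Values ran from PARP14 with 924 and 691 bp against 0 and 601 bp to PARP9 and DTX3L with 431 and 358 bp against 254 and 0 bp. BST2 had more H3K27ac than any of the IFITM genes, 3137 and 2272 bp against 2379 and 1920 bp, with overlapping groups. The ISG15 window held 703 and 218 bp against 430 and 0 bp. No IFIT or OAS gene had an H3K27ac peak in the window at its 5′ end, although IFIT2 had 687 and 195 bp against 0 and 0 bp around its MANE Select start.

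Of the 12 members higher for H3K27ac, 9 were also higher for H3K4me2 (75% of 12 and 40.9% of 22): ADAR, IFI16, TRIM22, ISG20, IFI35, ZBP1, MX2, DTX3L and PARP9. Over all genes 2671 were higher for both, 46.4% of those higher for H3K27ac and 48% of those higher for H3K4me2. The overlap itself was not tested.

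H3K4me3 separated the treatments at few members. Both Corin libraries lay above both DMSO libraries at 4 members (9.3%; BST2, IFIH1, IFI35 and PARP14) and below at 0, against 14.4% and 4.63% of all genes. An H3K4me3 peak lay near 15 members (34.9%, against 55.9% of all genes). Of these 15 members 26.7% were higher, against 25.7% of genes with a peak. The count of members lying above was 9 without the second Corin library (20.9%; all genes 27%) and 12 without the second DMSO library (27.9%; all genes 27.6%). Without the first DMSO library 4 members were above (9.3%; all genes 20.6%) and 5 below (all genes 14.8%). With a matched number of peaks it was 3 (all genes 13.4%), and RSAD2 and CMPK2, which share a window, were lower (all genes 5.07%). No member passed limma among 14 tested. Over all genes 0 of 10879 passed (0%), with 702 under an unadjusted p of 0.05, and 5.34% under it with more bp in Corin. BST2 was the 1 member under it.

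BST2 had the largest H3K4me3 difference of the members. Its peaks covered 2857 and 2757 bp in the Corin libraries and 1196 and 855 bp in the DMSO libraries, 2.74-fold more on average, 1781.5 bp apart (SD 251; limma log2 difference 1.13, SE 0.13, unadjusted p = 0.000864, adjusted p = 0.172). Counted from the start, the Corin peaks ran from -1729 to 1127 bp and from -1428 to 1328 bp. The peak of the first DMSO library ran from -291 to 904 bp, and the second had peaks from -555 to -313 bp and from -14 to 597 bp. The printed response element site, at -137 to -108, lies inside the peaks of both Corin libraries and of the first DMSO library, and between the peaks of the second. BST2 shares this stretch with transcripts of BISPR and MVB12A that run the other way, so the added H3K4me3 cannot be assigned to 1 gene. An H3K27ac region present in both Corin libraries alone (chr19:17407560-17407958) lay in introns of those transcripts, 2129 bp before the start of BST2.

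The other H3K4me3 differences were small. IFIH1 had 931 and 1134 bp with Corin and 753 and 849 bp with DMSO (231.5 bp, SD 159), and 130 bp without the second Corin library. IFI35 had 1754 and 1961 bp against 1644 and 1639 bp, 216 bp apart (SD 146), and 112.5 bp without the second Corin library. None of that H3K4me3 was nearest to its own start. PARP14, a mono-ADP-ribosyltransferase, had 1237 and 1245 bp against 1140 and 1088 bp (127 bp, SD 37.2). ISG15 had 748 and 667 bp of H3K4me3 within 2 kb of its MANE Select start in Corin and 0 and 570 bp in DMSO.

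**Figure D5:**
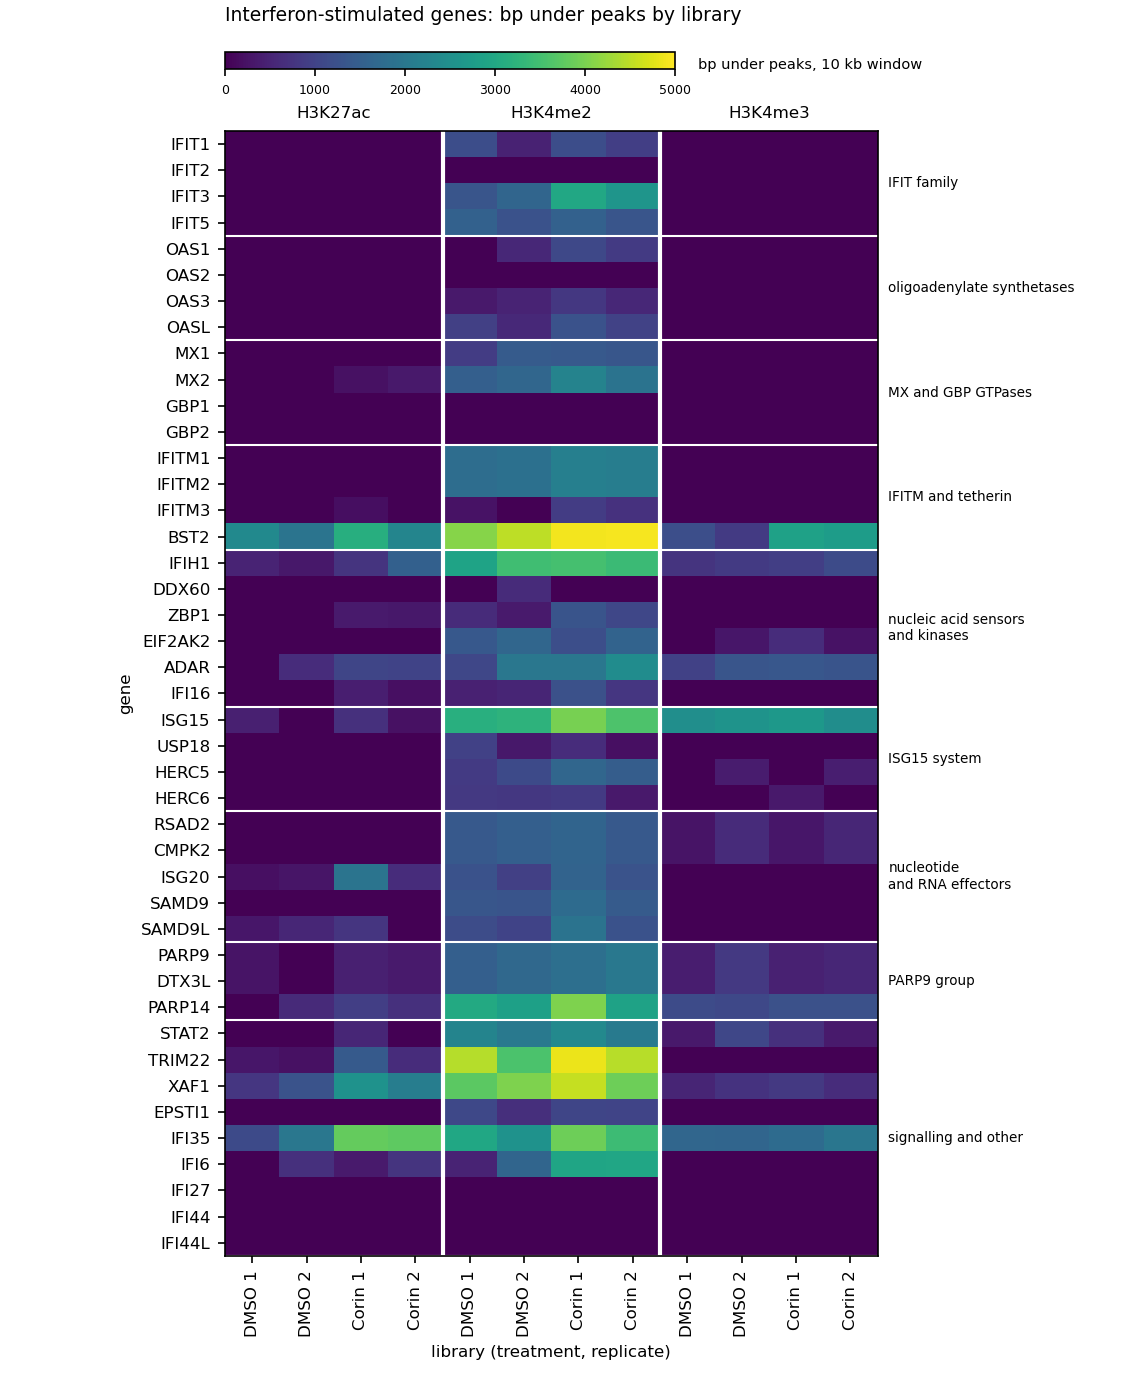
Colour gives the bp under peaks within 10 kb of the gene 5′ end for each member (rows, grouped by role) in each of the 12 libraries (columns), on a linear scale that ends at 5000 bp. H3K4me2 is present in most rows, H3K4me3 and H3K27ac are 0 in most, and IFI44L, IFI44, GBP1, OAS2, IFI27, IFIT2 and GBP2 are at 0 throughout; the last 2 have peaks around the MANE Select start.

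The combination of marks at the start differed between treatments for 12 members (27.9%; all genes 16.3%). GBP2, OAS1 and MX1 had H3K4me2 in both Corin libraries and in at most 1 DMSO library, and no other mark in both libraries of a treatment. H3K27ac was present besides H3K4me2 in both Corin libraries, but not in both DMSO libraries, at IFI16, TRIM22 and IFI35, and so it was besides H3K4me2 and H3K4me3 at DTX3L, PARP9 and PARP14. The same held for H3K4me3 at ISG15 and EIF2AK2. SAMD9L went the other way, with 771 and 0 bp of H3K27ac in Corin and 301 and 542 bp in DMSO. With Corin, 9 members had H3K27ac at the start (20.9%) and 6 had all 3 marks (14%), against 38.8% and 37.1% of all genes. Within 10 kb of the MANE Select start of the 22 members with H3K4me2 alone in DMSO, H3K4me2 was higher in both Corin libraries at 15 (68.2%), against 44.3% of the 2246 genes in that state. H3K27ac was higher at 7 of the 22 (31.8%), against 13.2% of those 2246, and H3K4me3 at 1 (4.55%, against 8.5%). Within 2 kb H3K4me2 was higher at 14 of the 22 (63.6%; 39.1% of the 2246) and H3K27ac at 3, IFI16, TRIM22 and IFI35 (13.6%; 5.61% of the 2246). Of the 11 members with no mark in both DMSO libraries, H3K4me2 was higher within 10 kb at 4 (36.4%; 10.8% of 7729 such genes) and H3K27ac at 0 (5.74%). Members and all genes were grouped by DMSO values that also enter these differences. For a mark absent from the DMSO state this favours a rise over a fall, in members and in all genes.

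As separate regions, H3K27ac had 33 within 10 kb of a member's 5′ end, of which 6 (18.2%) were present in both Corin libraries alone and 0 in both DMSO libraries alone. Over all 41575 H3K27ac regions the former share was 11.5%. The 6 became 13 (39.4%) without the second Corin library or without the second DMSO library, where all regions had 36.9% and 19.9%. The 6 lay at IFI16, XAF1, IFI35, BST2, ZBP1 and MX2, and none of them held the response element letters. H3K4me2 had 52 regions near members, 38 of them in all 4 libraries, and 1 in the Corin libraries alone (1.92%, against 9.64% of 42421). Near the MANE Select starts it had 60 regions, 3 of them in the Corin libraries alone (5%), at IFI6, GBP2 and IFI16. The count near the 5′ ends ranged from 2 to 5 when any of the 4 libraries was left out, against shares over all regions of 12.6%, 15.2%, 16.2% and 21.3%, and stayed below that share each time (3.85%, 5.77%, 7.69% and 9.62%). Counted by number of peaks in place of bp, H3K4me2 was higher at 1 member, IFI6 (2.33%, against 7.79% of all genes), so by this measure the members lay below the background. H3K4me3 had 13 regions near members and 0 in the Corin libraries alone (0%, against 1.5% of 12089).

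Of the 34 pathway genes that act before or beside the members, 15 were higher in both Corin libraries for H3K27ac (44.1%; all genes 28.7%), 25 for H3K4me2 (73.5%; all genes 27.8%) and 6 for H3K4me3 (17.6%; all genes 14.4%). In the same order 0, 0 and 3 were lower, against 0.344%, 2.69% and 4.63% of all genes. Medians of the difference were 464.75, 565.75 and 0 bp. With a matched number of peaks 10 were higher for H3K27ac (29.4%; all genes 16.8%) and 1 lower (all genes 1.67%), with a median of 0 bp, and 22 for H3K4me2 (64.7%; all genes 21.5%). In the 2 kb window 15 were higher for H3K4me2 (44.1%; all genes 17.5%), with a median of 181 bp. None passed limma for any mark. IRF9, which gives ISGF3 its DNA specificity, had 896 and 865 bp of H3K27ac with Corin against 305 and 295 bp with DMSO, and 327 and 247 bp against 0 and 0 bp of H3K4me3. IFNAR2 had 5381 and 4620 bp of H3K4me2 against 2314 and 2005 bp (limma log2 difference 1.05, SE 0.14, adjusted p = 0.116), but within 2 kb of its MANE Select start 2217 and 2085 bp against 2414 and 2220 bp. Of the sensors, CGAS had 10624 and 7829 bp of H3K27ac against 5173 and 4005 bp, and its adaptor STING1 8502 and 8191 bp against 3949 and 5718 bp. Of H3K4me2, STING1 had 7510 and 6675 bp against 3304 and 3942 bp, and CGAS 11078 and 8621 bp against 6781 and 6108 bp. The H3K4me2 values of CGAS overlapped within 2 kb of its start, at 2062 and 755 bp against 946 and 1964 bp. The phosphatase PTPN6, an inhibitor of the pathway, had 7967 and 7222 bp of H3K27ac against 3134 and 3897 bp. In the 2 kb window at its 5′ end it had 133 and 0 bp against 0 and 0 bp, and within 2 kb of its MANE Select start 3211 and 2978 bp against 2033 and 2097 bp. For H3K4me3 the largest separated differences were IRF8 (4290 and 4093 bp against 3713 and 3535 bp), MAVS (1630 and 1629 bp against 1134 and 1482 bp) and the inhibitor SOCS1 (2156 and 2427 bp against 2005 and 1977 bp). The H3K4me3 groups of IRF8 and SOCS1 overlapped within 2 kb of the start. The 3 lower ones were IKBKE, IFNAR1 and JAK2.

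IFI44L, IFI44, GBP1, OAS2 and IFI27 had no peak of any mark in any of the 12 libraries, whether the window was set at the gene's 5′ end or at the MANE Select start. IFI44L, IFI44, GBP1 and IFI27 each hold at least 1 match to the response element letters, and OAS2 was not among the matched promoters. The absence of a peak at an unknown depth does not show the absence of the mark.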

How the data were processed

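Peak lists of 12 CUT&RUN libraries were used, 1 list per library, so replicates were not pooled. The submitters' processing notes name Trim Galore, Bowtie2, Picard and MACS2, with the builds GRCh38 and hg38. Versions, control, threshold and the order of steps are not given in the sources used here. Each list, as deposited by the authors and without a header, gives peak positions and a whole-number score of at least 50 whose definition is not stated. The score only ranked or filtered peaks within a list. Positions were read on hg38 and counted from 1, and of 292523 peaks 0 lay beyond the length of a chromosome in that build. The other 7 libraries (4 with ATRA plus Corin, 1 against LSD1, 2 with IgG) were not analysed here.

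Coverage was summed per gene with Python 3.11.15, pandas 2.3.3 and numpy 2.4.6 from GENCODE release 44. limma 3.58.1 in R 4.3.3, with empirical Bayes and no covariate, was fitted per mark on genes with at least 200 bp in at least 2 of 4 libraries, with Benjamini-Hochberg adjustment over all genes tested. The fit was tested on simulated data. A region joins overlapping peaks of the 4 lists of a mark, and 1 bp of overlap counts as present. Named in full were, per mark, the 4 members with the largest difference among those whose groups do not overlap, members without a peak, and per role group the member with the most H3K27ac. With all peaks and the 10 kb window at the 5′ end, no member was lower in both Corin libraries. Of the 34 pathway genes the 3 with the largest such difference per mark were named. Other genes were named after their values were seen. Members, lists and rules were chosen with earlier results of these data known. The values at the MANE Select start in a 2 kb window and the bp nearest to a gene's own start were added after seeing the data. Other alternatives were a matched number of peaks, a score of at least 100, a 2 kb window, the MANE Select start, the number of peaks, no filter, a pseudocount of 100 bp, a replicate block and leaving out each library. A gene of the pathway list is not reported here by name.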

Additional observations from a re-analysis of the deposited data

How the results depend on the processing

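Counts moved with the settings, and without the first DMSO library H3K4me3 had 4 members higher and 5 lower (all genes 20.6% and 14.8%), against 4 and 0. H3K27ac was higher in both Corin libraries at 5 members with a matched number of peaks (all genes 16.8%), 6 at a score of at least 100 (24.1%) and 7 in a 2 kb window at either start (21.6% and 22.2%), against 12 (28.7%). By number of peaks, 1 member was higher for H3K4me2 (all genes 7.79%) and 0 for H3K4me3 (1.4%). With a matched number of peaks, 2 members were lower for H3K4me2 and 2 for H3K4me3, and H3K27ac had 3 regions in the Corin libraries alone (12%; all regions 4.49%). For H3K4me2 those regions numbered 4 when 50% of a region had to be covered (7.69%; all regions 13.7%), with 1 for H3K4me3 (7.69%; 2.18%), and 2 at a score of at least 100 (4.17%; 9.53%). Genes passing limma for H3K4me2, 14 in the report, were 7 at the MANE Select start, 24 without a filter, 111 with a pseudocount of 100 bp and 0 in a 2 kb window at either start, by own bp, with a matched number and at a score of at least 100. Without a filter 72 passed for H3K27ac and 12 for H3K4me3, and with a pseudocount of 100 bp 55 for H3K4me3. The cause was not tested.

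Leaving out 1 library at a time gave 0 to 1 H3K27ac members lower (all genes 0.978% to 3.77%), 1 to 3 for H3K4me2 (5% to 15%) and 0 to 5 for H3K4me3 (10.1% to 14.8%), 4 to 12 members higher for H3K4me3 (20.6% to 27.6%), 0 genes passing limma for H3K4me2, and 9 to 13, 2 to 5 and 0 to 1 regions in the Corin libraries alone for H3K27ac, H3K4me2 and H3K4me3 (all regions 16% to 36.9%, 12.6% to 21.3% and 2.23% to 5.35%). These limma fits assume that the lone library left in a group varies like the other group. No member passed limma under any alternative. Of 120 alternative values at named members, 102 stayed within 1 SD and 18 moved, mostly in the 2 kb window. The SD combines the spread of both groups, and leaving out 1 of the 2 libraries of a group cannot shift a difference by more. The values with a library left out could therefore not move, and the 102 are not a measure of stability.

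Libraries share only a replicate number, whose meaning the labels do not give. Same-numbered libraries deviated together, with a correlation over genes of 0.286 for H3K27ac, 0.310 for H3K4me2 and 0.228 for H3K4me3. With a replicate block, limma passed 142 genes and 0 members for H3K4me2, and 0 genes for the other marks. Paired by number, 15, 26 and 4 members were higher in both pairs for H3K27ac, H3K4me2 and H3K4me3, against 34.7%, 35.1% and 20.8% of all genes, and 2 were lower for H3K4me2 (5.15%). With 2 libraries per group, unknown depth and peak width in place of signal, each comparison has limited precision.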

Other observations

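The promoters of the members had a lower median of CpG dinucleotides than all promoters, which is given here beside their H3K4me3. Over the 33 matched promoters the median number of CpG dinucleotides in 300 bases was 9, and the median GC content 53.7%, against 24 and 64% over all 14586 matched promoters. The 8 matched members with H3K4me3 in both DMSO libraries had a median of 19.5 CpG (range 2 to 38), and the other 25 had a median of 8 (0 to 30). BST2, with 2 CpG, is the lowest of the former. Over all matched genes the medians were 28 with H3K4me3 and 11 without. The difference was not tested.

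Members with and without the response element letters can be set side by side for H3K4me2. H3K4me2 was higher in both Corin libraries at 12 of the 24 members with a match (50%) and at 4 of the 9 without (44.4%). Among other protein-coding genes the shares were 24.8% of 431 genes with a match and 27.7% of 14122 without. For H3K27ac they were 26.9% and 29.8% of those genes, and 5 of 24 (20.8%) and 3 of 9 members (33.3%). These shares are descriptions of the letters in 300 bases around the MANE Select start and were not tested.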
